A study of Mus musculus with 12 samples.

Results

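B cell receptor signalling was followed through 38 genes that encode the signalling chains of the receptor, its partners in the membrane, and the kinases, adaptors, lipid enzymes, GTPase regulators and inhibitors that act below it. All probe sets annotated to these symbols were taken, which gave 87 of the 45037 probe sets tested and 37 of the 18193 genes with a probe set of their own. None of the 87 carried a second gene symbol. Lyn, a SRC family kinase of this pathway, was not analysed here. A single probe set stood for 11 of the genes, and 26 genes had several. Statements about a gene use its probe set with the highest mean over all arrays, and the other probe sets are counted beside it.

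When antigen clusters the receptor, SRC family kinases phosphorylate the cytoplasmic tails of CD79A and CD79B, and SYK docks there and is activated. SYK and BTK then activate phospholipase C gamma through the adaptor BLNK, which releases calcium and turns on protein kinase C beta and, through BCL10 and MALT1, NF-kB. PI3 kinase, which produces the lipid that recruits BTK and AKT, is opposed by the lipid phosphatase SHIP1, while the phosphatase SHP-1 and the CBL ubiquitin ligases limit the signal. LPS acts through TLR4 and IL-4 through its own receptor, so neither is a ligand of the B cell receptor.

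The cells were B cells from the spleen of mice carrying the EFLmDREAM transgene (Tg) and of wild type mice (WT), and their RNA was hybridised to Affymetrix arrays that read 1 sample each. DREAM is a calcium-binding repressor of transcription, and Kcnip3 is its gene. Magnetic depletion of cells bearing CD43 gave the B cells, which were unstimulated (day 0) or kept in culture for 2 days with 20 µg/ml LPS and 10 ng/ml recombinant mouse IL-4. The 4 groups, Tg unstimulated, WT unstimulated, Tg stimulated and WT stimulated, held 3 independent replicates each. The promoter that drives the transgene, the meaning of its prefix, and the strain, age and sex of the mice are not given in the sources used here. Levels are log2 values as the authors deposited them, and a gene was called changed at an adjusted p under 0.05 in limma, adjusted over all 45037 probe sets.

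Of 10 B cell markers 8 were measured, and these 8 lay above the array median on all 12 arrays; 3 of them (Cd79a, Cd79b and Ms4a1) are also signalling genes described here. Array medians lay at 5.36 to 5.41 after stimulation and at 5.97 to 6.05 without it, so stimulation changes were taken from values quantile-normalized over all 12 arrays. The brighter Kcnip3 probe set averaged 7.12 ± 0.15 in Tg and 6.88 ± 0.27 in WT unstimulated cells, and 6.63 ± 0.13 in Tg and 6.60 ± 0.059 in WT stimulated cells (SD, n = 3 each; adjusted p = 0.279 and adjusted p = 0.976). In unstimulated cells 12 of 12 granulocyte markers and 13 of 14 markers of monocytes, macrophages and dendritic cells were higher in Tg cells, with summed levels of 108.9 to 115.0 in Tg against 74.7 to 76.9 in WT cells and of 120.1 to 123.2 in Tg against 103.3 to 106.3 in WT cells. After stimulation 3 of the 12 and 4 of the 14 were higher in Tg cells (summed levels 62.8 to 65.1 in Tg against 58.4 to 59.2 in WT, and 91.6 to 94.5 in Tg against 84.7 to 87.1 in WT). Markers of other cells were also higher in part in unstimulated Tg cells. These were 5 of 8 erythroid markers, with 1 lower (summed levels 59.4 to 62.7 in Tg against 50.2 to 54.0 in WT), 5 of 8 plasma cell markers (76.4 to 76.9 in Tg against 71.0 to 73.7 in WT) and 3 of 12 T and NK cell markers (81.1 to 83.0 in Tg against 75.0 to 78.9 in WT). After stimulation 4 of the 8 plasma cell markers were higher in Tg cells (73.0 to 73.8 in Tg against 68.7 to 70.6 in WT). The replicate 1 array of WT unstimulated cells stood apart in the ratio of its 5′ to its 3′ control probes, which was −2.22 for actin (log2) against −0.67 to −0.54 on the other 5 unstimulated arrays. The Y-linked Eif2s3y read 3.33 to 3.78 on the 4 arrays numbered 3 and 8.27 to 9.55 on the others.

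The levels of the 37 signalling genes were set against the array medians, which are not a threshold of expression. At the probe set that stands for it, each gene lay above the median on all 12 arrays, whereas 8 of the 87 probe sets lay below it on all 12. That probe set was chosen as the brightest on these same arrays, which favours this result. Vav3 read 5.43 on Tg stimulated replicate 3, whose median was 5.39. Levels of different probe sets cannot be set against each other, because each has its own affinity.

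**Figure D1:**
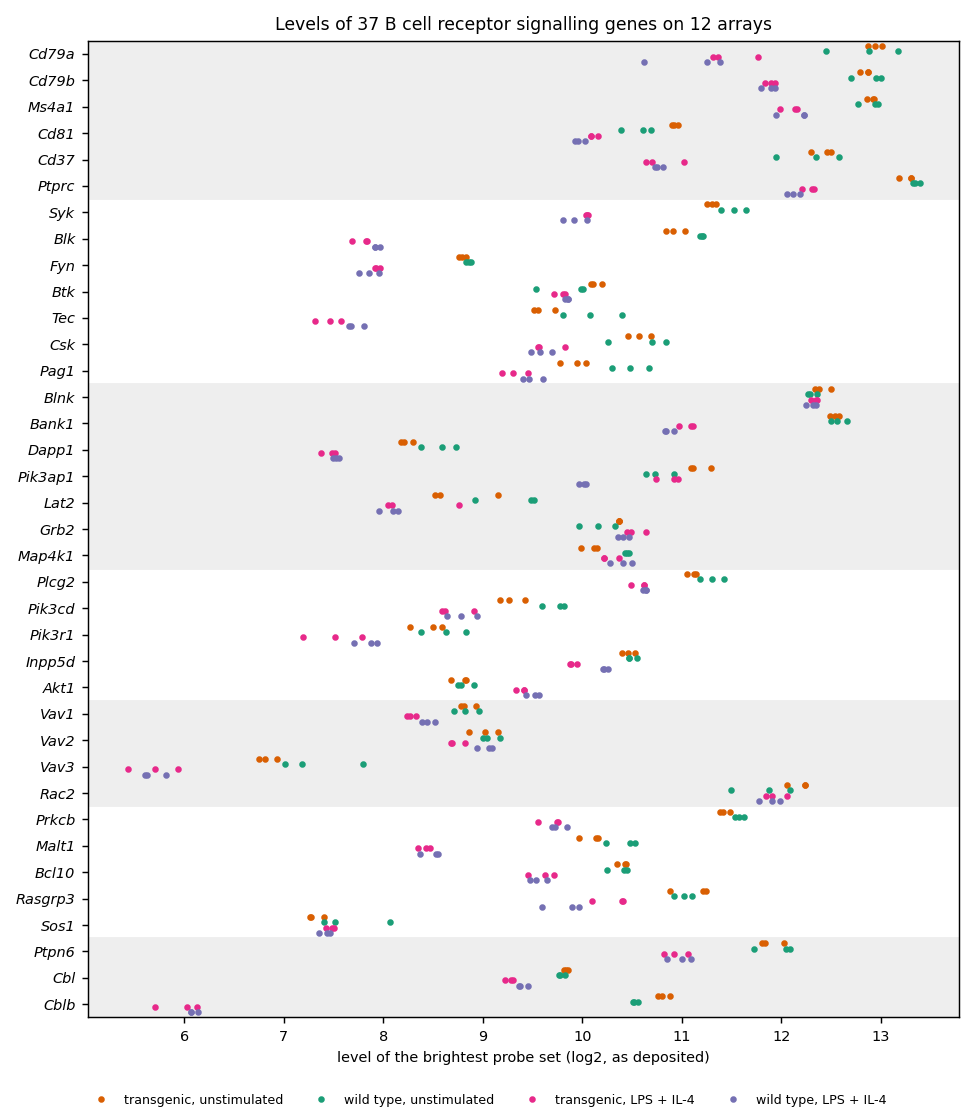
Levels of the 37 signalling genes on the 12 arrays (log2 as deposited, horizontal axis), 1 point per array and 1 colour per group, with the genes in role order and shaded by role. Most genes show 2 clusters, stimulated arrays at lower levels than unstimulated ones, and within a state the genotypes lie close together; with median-centred values 9 genes would be higher and 14 lower in Tg cells, and 11 higher and 20 lower in WT cells.

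The largest differences lay between the states. On quantile-normalized values, 32 of the 37 genes were lower and 2 higher after 2 days with LPS and IL-4 in Tg cells, where 23.3% of all genes were called lower and 35.2% higher. In WT cells 31 were lower and 1 was higher, against 24.0% lower and 35.9% higher among all genes. Without WT unstimulated replicate 1, the array that stood apart in its control probes, 33 were lower and 2 higher in WT cells. Falls of at least 2-fold were called for 15 genes in Tg cells (7.28% of all genes) and for 17 in WT cells (7.36%). The states did not overlap at 34 genes in Tg cells (67.2% of all genes) and at 31 in WT cells (64.5%). Of the 87 probe sets 66 were called in each genotype, where 55.2% of all probe sets were called in Tg and 56.7% in WT cells. The median change was −0.73 in Tg and −0.96 in WT cells, while over all genes it was 0.083 and 0.079. The shares and medians over all genes were not matched for level, whereas each signalling gene lay above the median of every array. In bulk RNA of this kind, fewer cells of a type and less RNA per cell cannot be told apart.

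These counts depend on how the states are brought to 1 scale. With the deposited values 1 gene was higher and 30 were lower in Tg cells, and 2 were higher and 29 lower in WT cells. After subtracting each array's median, 9 genes were higher and 14 lower in Tg cells, and 11 were higher and 20 lower in WT cells. The median of all genes was itself −0.36 with the deposited values in both genotypes, and 0.27 in Tg and 0.26 in WT cells with median-centred values. Relative to it, the signalling genes lay at −0.81, −0.44 and −0.44 in Tg cells with quantile-normalized, deposited and median-centred values, and at −1.04, −0.62 and −0.62 in WT cells. Under all 3 scalings 14 genes were called lower in Tg cells and 20 in WT cells, where the shares of all genes were 15% and 16.2%. The 14 were Bank1, Blk, Cblb, Cd37, Cd79a, Cd79b, Fyn, Malt1, Prkcb, Ptpn6, Ptprc, Syk, Tec and Vav3, and in WT cells Csk, Dapp1, Lat2, Pag1, Pik3cd and Rasgrp3 joined them. Akt1 alone of the 37 was higher under all 3 in both genotypes, as were 17.7% of all genes in Tg and 18.3% in WT cells. The change had another sign under at least 1 scaling for 13 of the 37 genes in Tg cells and for 10 in WT cells. Btk, Blnk, Inpp5d, Vav1, Vav2, Rac2 and Cbl did so in both, Pag1, Pik3ap1, Lat2, Grb2, Plcg2 and Pik3cd in Tg cells and Cd81, Map4k1 and Sos1 in WT cells, so the directions given below for these genes hold for quantile-normalized values.

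**Figure D2:**
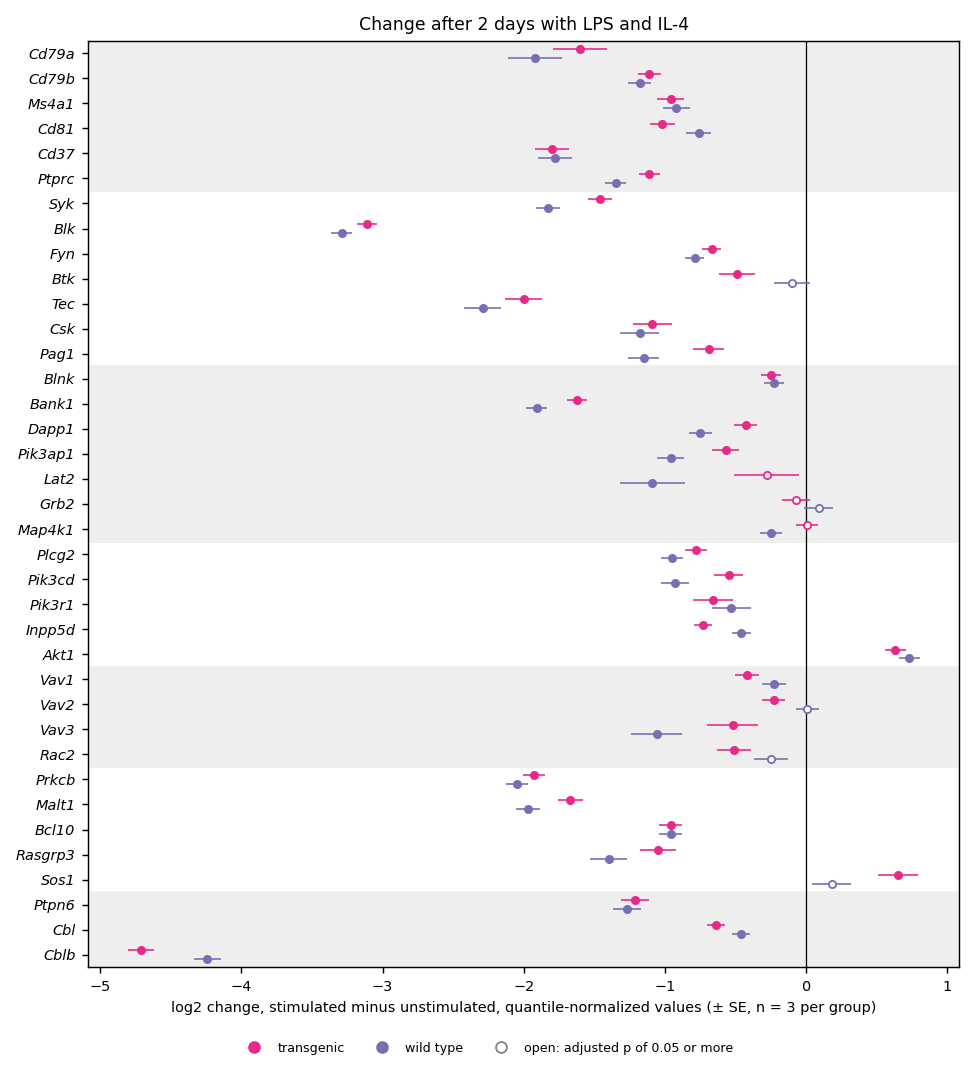
Change of each signalling gene after 2 days with LPS and IL-4 (log2, stimulated minus unstimulated, quantile-normalized values, ± SE, n = 3 per group), Tg above WT, filled where the adjusted p was under 0.05. Most points lie left of 0, with Cblb and Blk farthest out and Akt1 to the right in both genotypes; of the points nearer 0, several change side with the median-centred values (Btk, Blnk and Vav1 in both genotypes).

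All 6 receptor chains and surface partners fell in both genotypes on quantile-normalized values, the scale of all levels and changes in the account of stimulation unless another is named. Cd79a, the signalling chain whose tail carries the tyrosines for SYK, stood at 11.18, 11.22 and 11.58 in stimulated and 12.90, 12.95 and 12.93 in unstimulated Tg cells. In WT cells it stood at 11.09, 11.22 and 10.49 after stimulation and at 12.55, 12.88 and 13.14 before it. The states did not overlap in either genotype, and the change was −1.60 ± 0.19 in Tg and −1.92 ± 0.19 in WT cells (adjusted p = 7.62e-06 and adjusted p = 1.28e-06). Its partner chain Cd79b fell by 1.11 ± 0.079 in Tg and by 1.18 ± 0.079 in WT cells. It read 11.73, 11.68 and 11.75 in stimulated and 12.78, 12.85 and 12.87 in unstimulated Tg cells, and 11.63, 11.77 and 11.72 in stimulated and 12.73, 12.96 and 12.96 in unstimulated WT cells. Again no stimulated array reached an unstimulated one. The tetraspanin Cd37 fell by 1.80 ± 0.12 in Tg and 1.78 ± 0.12 in WT cells, reading 10.55, 10.60 and 10.86 in stimulated and 12.37, 12.49 and 12.54 in unstimulated Tg cells. The stimulated arrays of Cd37 all lay below the unstimulated ones. Ptprc, which encodes the phosphatase CD45 that primes SRC family kinases, fell by 1.11 in Tg and 1.35 in WT cells. Ms4a1, which encodes CD20, and Cd81, a tetraspanin, changed by −0.96 and −1.02 in Tg and by −0.92 and −0.76 in WT cells. For these last genes the call was lost with median-centred values, where Cd81 in WT cells read 0.027 and Ms4a1 −0.14. Of the 8 B cell markers 7 were lower after stimulation in each genotype, Pax5 being the exception.

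Among tyrosine kinases and their regulators 7 of 7 fell in Tg cells and 6 of 7 in WT cells. Blk, a SRC family kinase of B cells, stood at 7.98, 7.88 and 8.02 in stimulated and 10.98, 11.16 and 11.07 in unstimulated Tg cells. It read 8.06, 8.11 and 8.02 in stimulated and 11.36, 11.35 and 11.37 in unstimulated WT cells. No state overlapped with the other, and Blk was 8.65-fold lower in stimulated Tg cells (−3.11 ± 0.072, adjusted p = 4.78e-12) and 9.81-fold lower in stimulated WT cells (−3.29 ± 0.072, adjusted p = 2.66e-12). Tec, a kinase of the BTK family, read 7.66, 7.78 and 7.55 in stimulated and 9.81, 9.59 and 9.60 in unstimulated Tg cells, and 7.96, 7.83 and 7.79 in stimulated and 10.46, 10.14 and 9.87 in unstimulated WT cells. It fell by 2.00 ± 0.13 in Tg and by 2.29 ± 0.13 in WT cells, without overlap. Btk itself read 9.76, 9.70 and 9.79 in stimulated and 10.22, 10.29 and 10.22 in unstimulated Tg cells, a fall of 0.49 ± 0.13 (adjusted p = 0.00476). In WT cells Btk read 9.76, 9.79 and 9.77 after and 9.49, 10.03 and 10.10 before stimulation. These arrays overlapped (−0.10 ± 0.13, adjusted p = 0.524), and with median-centred values it read 0.28 in Tg and 0.61 in WT cells. The value of 9.49 came from WT unstimulated replicate 1, whose 5′ to 3′ ratio stood apart. Replicates 2 and 3 lay above all stimulated WT arrays. Syk, the kinase that binds the phosphorylated tails, read 10.0, 10.0 and 10.0 in stimulated and 11.43, 11.45 and 11.50 in unstimulated Tg cells, and 9.74, 9.86 and 9.96 in stimulated and 11.83, 11.66 and 11.55 in unstimulated WT cells. That was a fall of 1.46 ± 0.084 in Tg and of 1.83 ± 0.084 in WT cells. Fyn fell by 0.67 and 0.79, and Csk, which inhibits SRC family kinases, by 1.09 and 1.18 in Tg and WT cells. Pag1, a membrane adaptor that brings CSK to them, fell by 0.69 in Tg and 1.15 in WT cells, but read 0.03 in Tg cells with median-centred values.

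Adaptors were mixed. Of 7, 4 fell in Tg and 6 in WT cells on quantile-normalized values, and with median-centred values 4 were higher and 1 lower in Tg cells and 3 higher and 3 lower in WT cells. Blnk, which couples SYK to phospholipase C gamma, read 12.23, 12.23 and 12.14 in stimulated and 12.52, 12.44 and 12.41 in unstimulated Tg cells. The states did not overlap but lay close together (−0.25 ± 0.069, adjusted p = 0.00706), as in WT cells (−0.23 ± 0.069, adjusted p = 0.0121). With median-centred values Blnk was instead higher by 0.57 in Tg and 0.62 in WT cells. Bank1, a scaffold that ties the receptor to calcium release, fell under each scaling, by 1.62 ± 0.071 in Tg and 1.91 ± 0.071 in WT cells on quantile-normalized values. Pik3ap1, which encodes the PI3 kinase adaptor BCAP, fell by 0.57 in Tg and 0.96 in WT cells. Lat2, a membrane adaptor, fell in WT cells (−1.09) and was not called in Tg cells (−0.28, adjusted p = 0.314). A dimmer Lat2 probe set, 1443039_at, was called lower in both (−0.60 in Tg and −0.57 in WT cells), but lay below the median of every array. Grb2, the adaptor that carries SOS1, was called in neither genotype at its brighter probe set (−0.072 ± 0.10 in Tg and 0.087 ± 0.10 in WT cells). Its dimmer probe set, 1418508_a_at, was called lower in both (−0.55 ± 0.10 in Tg and −0.49 ± 0.10 in WT cells).

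In the lipid branch Plcg2, the phospholipase that makes the calcium-releasing second messenger, stood at 10.53, 10.53 and 10.39 in stimulated and 11.21, 11.26 and 11.31 in unstimulated Tg cells. That fall of 0.78 ± 0.077 had a counterpart of 0.95 ± 0.077 in WT cells, where the arrays read 10.52, 10.51 and 10.51 after and 11.59, 11.35 and 11.45 before stimulation. In Tg cells its sign turned with median-centred values (0.11). Pik3cd, the catalytic p110 delta subunit of PI3 kinase, fell by 0.55 in Tg and 0.93 in WT cells, and its regulatory partner Pik3r1 by 0.66 and 0.53. Of the 6 Pik3cd probe sets 2 were called lower in each genotype. Their changes spanned −0.81 to 0.026 in Tg and −1.06 to 0.36 in WT cells. Akt1, the kinase recruited by the PI3 kinase lipid, ran the other way. It read 9.33, 9.41 and 9.40 in stimulated and 8.64, 8.78 and 8.83 in unstimulated Tg cells (0.63 ± 0.074, adjusted p = 8.27e-06), and was higher by 0.73 ± 0.074 in stimulated WT cells (9.39, 9.49 and 9.51 after and 8.79, 8.69 and 8.73 before stimulation, adjusted p = 1.99e-06). All stimulated arrays lay above the unstimulated ones. Of the 4 Akt1 probe sets 2 were called higher in Tg and 3 in WT cells, and none lower. Inpp5d, which encodes SHIP1, fell by 0.73 in Tg and 0.46 in WT cells, but changed sign between scalings in both.

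Vav1, a RAC exchange factor, had a small change of −0.42 ± 0.086 in Tg and −0.23 ± 0.086 in WT cells (adjusted p = 0.00101 and adjusted p = 0.036). It read 8.43, 8.38 and 8.40 in stimulated and 8.79, 8.89 and 8.78 in unstimulated Tg cells, and 8.59, 8.49 and 8.49 in stimulated and 8.56, 8.89 and 8.80 in unstimulated WT cells. The WT states overlapped at Vav1, and with median-centred values it read 0.077 in Tg and 0.24 in WT cells. Vav3 fell in both genotypes under each scaling (−0.52 ± 0.18 in Tg and −1.06 ± 0.18 in WT cells). Vav2 and the GTPase gene Rac2 were lower in Tg cells (−0.23 and −0.51) and not called in WT cells (0.0075, and −0.25 with adjusted p = 0.0953). With the replicate number as a block Rac2 was called in WT cells too (adjusted p = 0.0308). On WT unstimulated replicate 1 Rac2 read 11.67, against 12.04 and 12.21 on replicates 2 and 3. Leaving out 1 array at a time took away the calls of Vav2 and Vav3 in Tg cells without Tg unstimulated replicate 2 or Tg stimulated replicate 2 or 3, that of Vav2 also without Tg unstimulated replicate 1, and that of Vav3 also without Tg unstimulated replicate 3 (adjusted p up to 0.138 for Vav2 and 0.108 for Vav3). In WT cells the call of Vav1 was lost without replicate 2 or 3 of either state (adjusted p up to 0.151), and that of Map4k1, a kinase upstream of JNK, without WT stimulated replicate 1 (adjusted p = 0.0717). The other 32 calls in Tg and 30 in WT cells held without any 1 array.

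The route to NF-kB fell in both genotypes. Prkcb, which encodes protein kinase C beta, read 9.53, 9.72 and 9.71 in stimulated and 11.65, 11.53 and 11.58 in unstimulated Tg cells. In WT cells it read 9.78, 9.65 and 9.66 after and 11.81, 11.68 and 11.75 before stimulation. The change was −1.93 ± 0.078 in Tg and −2.05 ± 0.078 in WT cells, without overlap in either. Malt1, the paracaspase, fell by 1.67 ± 0.088 in Tg and 1.97 ± 0.088 in WT cells, with 8.62, 8.47 and 8.57 in stimulated and 10.64, 10.57 and 10.35 in unstimulated WT cells. Its partner Bcl10 fell by 0.96 ± 0.081 in both. Rasgrp3, an exchange factor that links diacylglycerol to RAS, fell by 1.05 in Tg and 1.40 in WT cells. Sos1, the GRB2-bound exchange factor, was higher in stimulated Tg cells at its brightest probe set (7.69, 7.69 and 7.64 in stimulated and 6.97, 7.12 and 6.99 in unstimulated cells, 0.65 ± 0.14, adjusted p = 0.00141), but was not called there with the deposited values (0.16).

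Among the 37 signalling genes the largest change at the probe set that stands for the gene was that of Cblb, a ubiquitin ligase that restrains antigen receptor signals. It stood at 6.33, 6.41 and 6.01 in stimulated and 11.03, 10.93 and 10.91 in unstimulated Tg cells. WT cells read 6.41, 6.44 and 6.37 after and 10.68, 10.61 and 10.64 before stimulation. The fall was 26.1-fold in Tg cells (−4.71 ± 0.095, adjusted p = 1.51e-12) and 18.9-fold in WT cells (−4.24 ± 0.095, adjusted p = 3.21e-12), and all 3 Cblb probe sets were called lower in both. The other 2 fell less, 4.26- and 2.63-fold in Tg cells and 4.99- and 2.16-fold in WT cells. Its relative Cbl fell by 0.64 in Tg and 0.46 in WT cells, and Ptpn6, which encodes SHP-1, by 1.21 and 1.27.

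Probe sets of 1 gene did not always tell the same story. Over the 26 genes with several, the changes of a gene's probe sets spanned at least 1 log2 unit for 8 genes in Tg and 14 in WT cells, with median spans of 0.66 and 1.00. Called probe sets pointed in opposite directions for Dapp1 and Sos1 in both genotypes and for Cbl in WT cells. The brighter Dapp1 probe set read 7.68, 7.73 and 7.61 in stimulated and 8.08, 8.16 and 8.08 in unstimulated Tg cells (−0.43 ± 0.080), while the dimmer one read 7.97, 7.97 and 7.93 after and 7.29, 7.65 and 7.40 before stimulation (0.51 ± 0.10). In WT cells the 2 probe sets of Dapp1, an adaptor that binds PI3 kinase lipids, read −0.75 and 0.52. At Sos1 the pair called in Tg cells were 1434389_at (0.65) and 1421886_at (−0.66), and in WT cells 1421884_at was higher (0.33) while 1421886_at (−0.68) and 1431311_at (−0.22) were lower. The call of 1431311_at in WT cells was lost with the replicate number as a block (adjusted p = 0.068). For Cbl in WT cells the probe set 1450457_at was higher (6.33, 6.35 and 6.47 in stimulated and 6.13, 5.91 and 5.44 in unstimulated cells, 0.55 ± 0.15) against −0.46 ± 0.064 at the brightest one. With the deposited values the rises in WT cells at 1450457_at and 1421884_at turned to −0.043 and −0.09. Malt1 fell more at its other probe sets, by 4.33 and 3.23 in Tg and by 3.98 and 3.38 in WT cells.

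**Figure D3:**
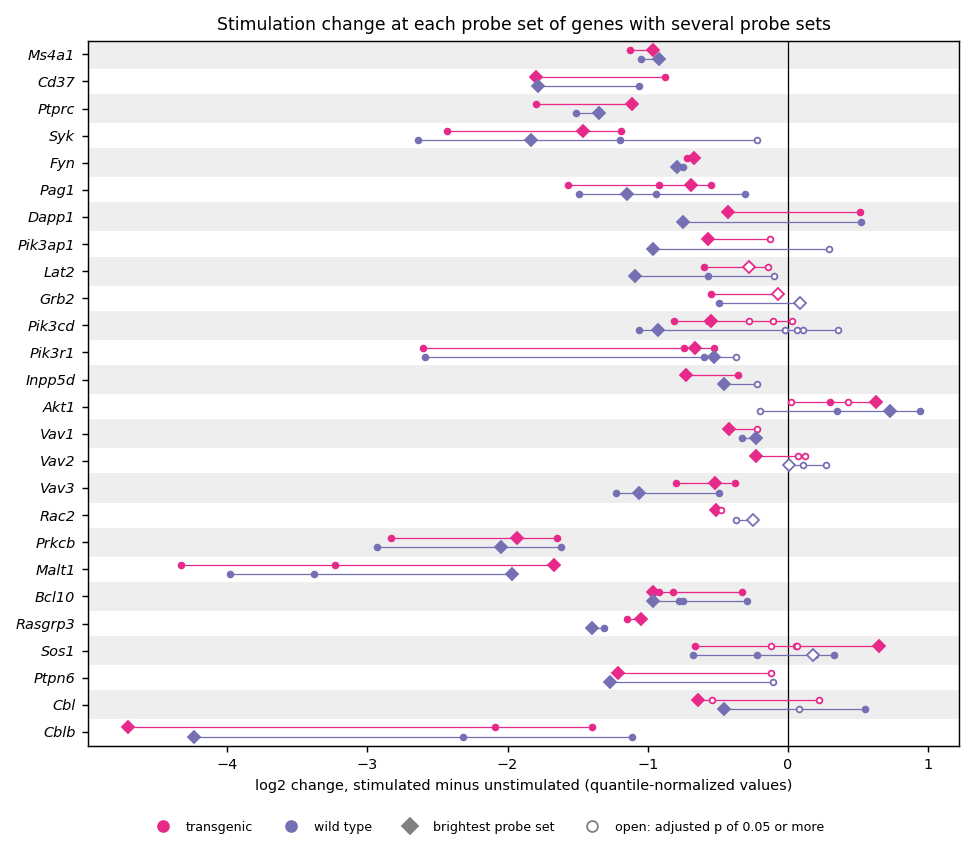
Change after stimulation (log2, stimulated minus unstimulated, quantile-normalized values) at each probe set of the 26 genes with several, Tg above WT, diamonds marking the probe set that stands for the gene and open symbols an adjusted p of 0.05 or more. Lines join the probe sets of a gene; those of Malt1, Pik3r1 and Cblb spread over more than 1 log2 unit, and those of Dapp1 and Sos1 lie on both sides of 0.

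Between genotypes the differences in unstimulated cells were small. Of the 37 genes 2 were higher and 7 lower in Tg cells, 9 in all, where 10.4% of all genes were called (5.45% higher and 4.90% lower). Of the 87 probe sets 12 were called, against 9.45% of all probe sets. The groups did not overlap at 17 of the 37 genes, against 25.4% of all genes. The median difference was −0.04 (0.013 over all genes), and none of the 9 reached 2-fold.

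Pik3ap1 and Cd81 were the 2 genes that were higher. Pik3ap1 encodes BCAP, the adaptor through which the receptor recruits PI3 kinase. It stood at 11.29, 11.09 and 11.11 in Tg and 10.92, 10.73 and 10.64 in WT cells, a gap without overlap of 0.40 ± 0.093 (adjusted p = 0.0176). Cd81 read 10.90, 10.92 and 10.96 in Tg and 10.39, 10.61 and 10.69 in WT cells (0.36 ± 0.082, adjusted p = 0.0153). Every Tg array lay above every WT array for both. BCAP is also found in macrophages and CD81 in many cell types, and the part of the higher granulocyte, myeloid, erythroid, plasma cell and T and NK cell markers in these differences was not tested.

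Pag1 had the largest difference among those that were lower. It read 9.95, 10.04 and 9.77 in Tg and 10.67, 10.48 and 10.30 in WT cells, again without overlap (−0.56 ± 0.11, adjusted p = 0.00685). Its other 3 probe sets were not called (0.24, −0.0067 and −0.097). Tec read 9.72, 9.55 and 9.51 in Tg and 10.40, 10.08 and 9.80 in WT cells (−0.50 ± 0.13, adjusted p = 0.0305), and its lowest WT array lay close to its highest Tg array. Pik3cd stood at 9.17, 9.42 and 9.26 in Tg and 9.81, 9.77 and 9.59 in WT cells (−0.44 ± 0.11). Its other 5 probe sets were not called, and 4 of them lay the other way (0.60, 0.59, 0.45, 0.08 and −0.12). Map4k1 read 9.99, 10.15 and 10.12 in Tg and 10.47, 10.43 and 10.45 in WT cells (−0.36 ± 0.081, adjusted p = 0.0141). The WT arrays of Map4k1 lay within a few hundredths of each other and above all Tg arrays. Dapp1 read 8.21, 8.30 and 8.18 in Tg and 8.73, 8.59 and 8.38 in WT cells (−0.34 ± 0.089), while its other probe set averaged 7.67 in both genotypes. Malt1 (−0.33 ± 0.093, adjusted p = 0.0455) and Blk (−0.27 ± 0.075, adjusted p = 0.0392) passed the threshold by little, and their groups did not overlap either. The other 2 Malt1 probe sets lay the other way and were not called (0.68 ± 0.51 and 0.12 ± 0.29). Blk lost its call with the replicate number as a block (adjusted p = 0.0547).

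The receptor chains themselves were not called. Cd79a read 12.87, 13.01 and 12.94 in Tg and 12.45, 12.88 and 13.17 in WT cells (0.11 ± 0.20), and Cd79b 12.79, 12.87 and 12.87 in Tg and 12.70, 12.95 and 13.00 in WT cells (−0.04 ± 0.087). Both sets of arrays overlapped. The groups did not overlap for Syk (11.25, 11.30 and 11.34 in Tg; 11.64, 11.52 and 11.39 in WT), Plcg2 (11.05, 11.12 and 11.14 in Tg; 11.42, 11.18 and 11.30 in WT) or Btk (10.11, 10.20 and 10.09 in Tg; 9.53, 9.99 and 10.01 in WT). None of these 3 passed the threshold (−0.22 ± 0.085, −0.20 ± 0.078 and 0.29 ± 0.11, adjusted p = 0.129, 0.138 and 0.124). Blnk (12.50, 12.38 and 12.34 in Tg; 12.36, 12.29 and 12.27 in WT; 0.10 ± 0.071) and Vav1 (8.81, 8.93 and 8.78 in Tg; 8.71, 8.96 and 8.82 in WT; 0.01 ± 0.081) overlapped and were not called.

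At Cblb the probe sets disagreed. The probe set 1437304_at read 8.33, 8.42 and 8.43 in Tg and 8.11, 7.91 and 8.02 in WT cells (0.38 ± 0.076, adjusted p = 0.00773). At 1455082_at the order was turned, with 9.28, 9.33 and 9.10 in Tg and 9.77, 9.46 and 9.65 in WT cells (−0.39 ± 0.089, adjusted p = 0.0161). Neither pair of groups overlapped, and the brightest Cblb probe set was not called (0.28 ± 0.098, adjusted p = 0.0923). The probe set of Syk called higher in Tg cells, 1425797_a_at, read 8.63, 9.02 and 8.50 in Tg and 6.58, 8.15 and 7.78 in WT cells (1.21 ± 0.30). Its low value of 6.58 belongs to WT replicate 1, the array that stood apart in its 5′ to 3′ ratio, and without that array the difference was 0.75 ± 0.17 (adjusted p = 0.0187). The call was lost without any 1 of the 3 Tg arrays.

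Most of these calls were lost when 1 array or another was left out, while the differences kept their direction. They ranged from −0.32 to −0.23 at Blk and from −0.41 to −0.27 at Malt1. Of the 37 genes 4 were called without WT unstimulated replicate 1, with Tec, Blk, Dapp1, Pik3cd and Malt1 lost, and 3 were called without Tg unstimulated replicate 1, Tg unstimulated replicate 3 or WT unstimulated replicate 2. Without WT unstimulated replicate 3 the count was 13, with 5 higher and 8 lower, and 7518 of all probe sets were called, against 4256 with all arrays. Pag1 alone kept its call without any 1 of the 12 arrays. Cd81 lost it without Tg unstimulated replicate 3 (adjusted p = 0.0634), Map4k1 without Tg unstimulated replicate 1 (adjusted p = 0.0637), and Pik3ap1 without Tg unstimulated replicate 1 or WT unstimulated replicate 2 (adjusted p up to 0.0772). Tec, Pik3cd and Dapp1 lost it without WT unstimulated replicate 1 or 2 or Tg unstimulated replicate 3, and also without Tg replicate 1 (Pik3cd and Dapp1) or 2 (Tec and Dapp1), with adjusted p up to 0.121. Blk kept its call without 3 of the 12 arrays and Malt1 without 1 of the 12. At 10 of the 87 probe sets, none of them standing for its gene, WT replicate 1 read at least 0.5 below the other 5 unstimulated arrays. These included probe sets of Pik3cd (1.5 below), Syk (1.20), Pik3ap1 (1.17) and Malt1 (0.93). Among probe sets that stand for a gene, the same array was lowest by less than 0.5 at several, among them Btk, Cd79a, Rac2, Cd37 and Cd81. It was highest at others, such as Tec and Pag1. Without it the difference was 0.13 for Btk and 0.20 for Rac2, against 0.29 and 0.36 with all arrays. For Cd81, which kept its call, it was 0.28 ± 0.074 (adjusted p = 0.0442), against 0.36 with all arrays.

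**Figure D4:**
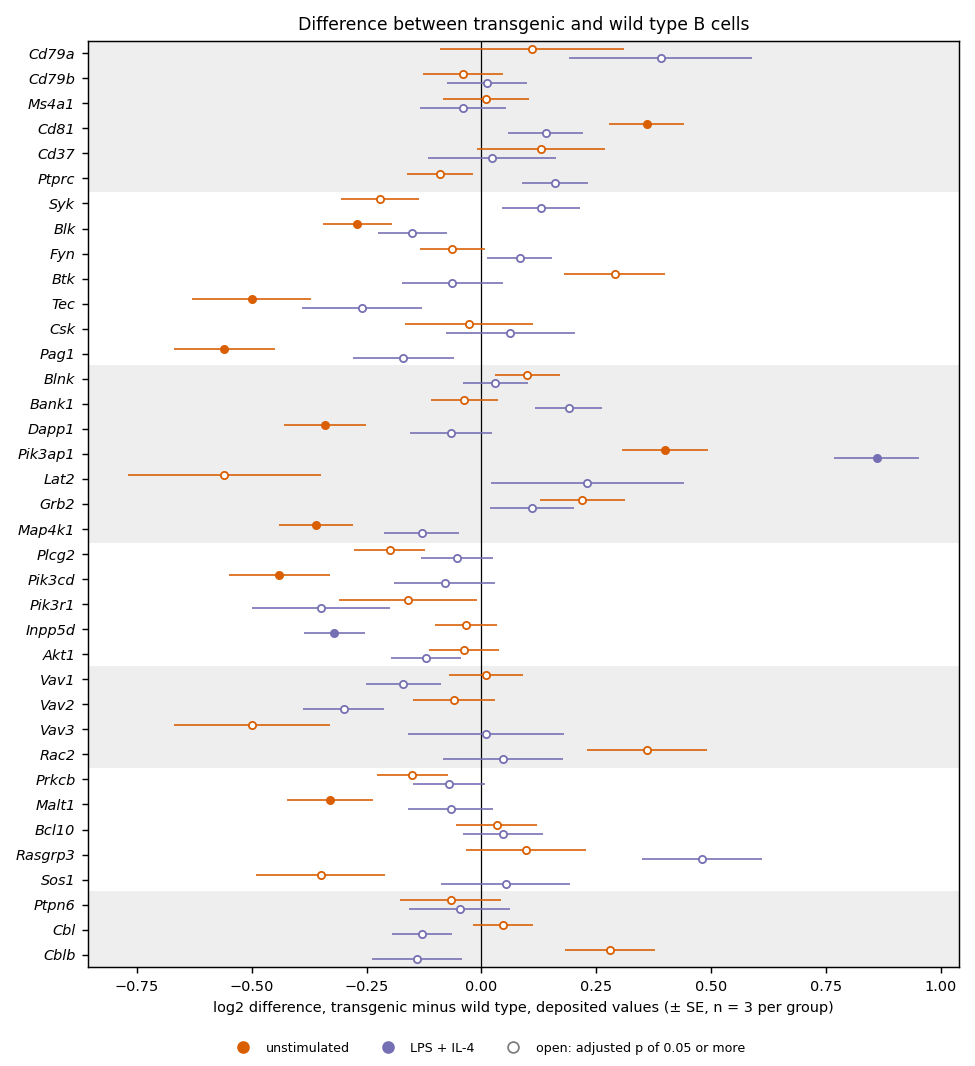
Difference between Tg and WT cells at each signalling gene (log2, Tg minus WT, deposited values, ± SE, n = 3 per group) in unstimulated cells (upper point) and after LPS and IL-4 (lower point), filled where the adjusted p was under 0.05. In unstimulated cells 9 points are filled; after stimulation Pik3ap1 (0.86) and Inpp5d (−0.32) are.

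After stimulation 2 of the 37 genes differed between the genotypes, 1 higher and 1 lower in Tg cells, where 2.34% of all genes were called (1.24% higher and 1.10% lower). Of the 87 probe sets 4 were called, against 1.86% of all probe sets. The groups did not overlap at 12 genes (22.0% of all genes). Both called genes act on PI3 kinase signalling, one recruiting the kinase and the other removing its product. Pik3cd (−0.08), Pik3r1 (−0.35) and Akt1 (−0.12) of the same branch were not called, and a shared change of the branch was not tested.

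Pik3ap1 was higher in stimulated Tg cells. It stood at 10.92, 10.96 and 10.74 in Tg against 10.02, 10.04 and 9.97 in WT cells. All Tg arrays lay above all WT arrays, and the difference of 0.86 ± 0.093 (adjusted p = 0.000229) amounted to 1.82-fold. This call held without any 1 of the 12 arrays. Its dimmer probe set was not called (0.10 ± 0.30). The granulocyte, myeloid and plasma cell markers given above were also higher in part here, and their part in this result was not tested.

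Inpp5d, which encodes SHIP1, was lower. Its arrays read 9.95, 9.88 and 9.89 in Tg against 10.26, 10.22 and 10.21 in WT cells (−0.32 ± 0.067, adjusted p = 0.0275). The groups did not overlap, but the call was lost without any 1 of the 6 stimulated arrays (adjusted p up to 0.113) and with quantile normalization, where Pik3ap1 was the only gene called. The second Inpp5d probe set did not differ beyond its error (−0.013 ± 0.11).

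Rasgrp3 was called higher in Tg cells at 1 of its 2 probe sets, not the one that stands for the gene. Its probe set 1438031_at read 7.86, 8.24 and 8.16 in Tg and 7.35, 7.54 and 7.52 in WT cells (0.62 ± 0.12, adjusted p = 0.016). At the brighter probe set that stands for the gene, the arrays read 10.41, 10.40 and 10.10 in Tg and 9.97, 9.90 and 9.59 in WT cells. They did not overlap, and the difference of 0.48 ± 0.13 passed the threshold with the replicate number as a block (adjusted p = 0.02) but not without it (adjusted p = 0.0883). The call of 1438031_at was lost without Tg stimulated replicate 2 or 3 or WT stimulated replicate 1 or 3. The Sos1 probe set 1421884_at was lower in Tg cells (7.10, 6.79 and 7.0 in Tg; 7.36, 7.38 and 7.63 in WT; −0.49 ± 0.11, adjusted p = 0.0453) and lost that call without any of 10 of the 12 arrays.

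The core of the pathway was not called after stimulation. Cd79a read 11.31, 11.36 and 11.76 in Tg and 11.25, 11.38 and 10.62 in WT cells (0.39 ± 0.20), and Cd79b 11.89, 11.83 and 11.94 in Tg and 11.79, 11.94 and 11.89 in WT cells (0.013 ± 0.087). Syk read 10.05, 10.04 and 10.06 in Tg and 9.80, 9.92 and 10.05 in WT cells (0.13 ± 0.085), and Btk 9.80, 9.71 and 9.82 in Tg and 9.82, 9.85 and 9.85 in WT cells (−0.063 ± 0.11). The groups overlapped for these 4 genes, as they did for Blnk (0.03 ± 0.071) and Plcg2 (−0.053 ± 0.078). Vav1 lay without overlap lower in Tg cells (8.33, 8.24 and 8.27 in Tg; 8.52, 8.39 and 8.44 in WT) but missed the threshold (−0.17 ± 0.081, adjusted p = 0.476).

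**Figure D5:**
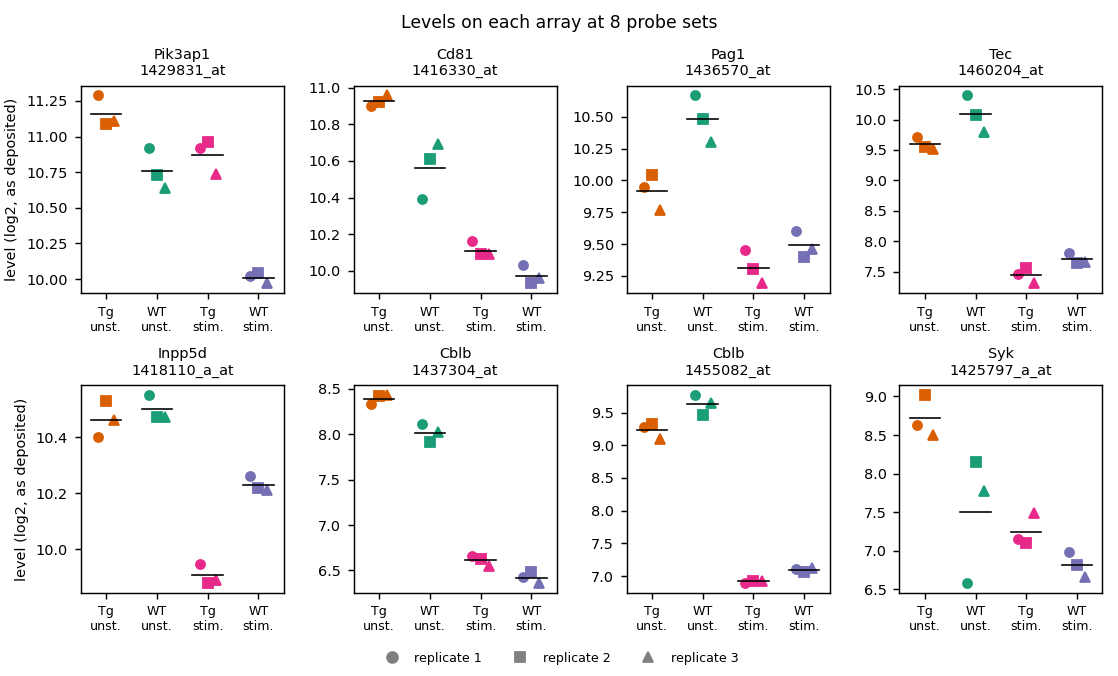
Levels (log2 as deposited) on each array at 8 probe sets of Pik3ap1, Cd81, Pag1, Tec, Cblb, Inpp5d and Syk, with unstimulated and then stimulated groups, Tg left of WT, symbols for the replicate number and lines for group means. The 3 stimulated Tg arrays of Pik3ap1 lie at 10.74 to 10.96, above the 3 WT arrays at 9.97 to 10.04, and the WT unstimulated replicate 1 of Syk lies at 6.58, apart from the other unstimulated arrays.

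Whether stimulation changed the genes differently in the genotypes was tested by the interaction of genotype and stimulation. None of the 87 probe sets was called by limma, where 1.58% of all probe sets were. At an unadjusted p under 0.05 there were 12 of 87 (13.8%), against 13.3% of all probe sets. The smallest adjusted p was 0.12, at Pik3ap1 (0.46 ± 0.13). For Cd79a the interaction was 0.29 ± 0.29, for Cd79b 0.053 ± 0.12, for Btk −0.35 ± 0.16, for Syk 0.35 ± 0.12 and for Cblb −0.42 ± 0.14.

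DREAM binds DNA at the downstream regulatory element, whose core is GTCA, and the promoters of the 2 genes called after stimulation are shown for this reason. The windows are the 250 bases before the start of the gene in RefSeq's table for GRCm38.p6, written in the direction of transcription, with each GTCA and its reverse complement TGAC in capitals.
Pik3ap1, minus strand, chr19:41385103-41385352: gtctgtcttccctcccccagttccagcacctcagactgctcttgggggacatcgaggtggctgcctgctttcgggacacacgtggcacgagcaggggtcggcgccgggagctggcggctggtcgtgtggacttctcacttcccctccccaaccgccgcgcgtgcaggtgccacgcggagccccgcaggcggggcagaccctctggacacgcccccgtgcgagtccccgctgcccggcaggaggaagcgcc
Inpp5d, plus strand, chr1:87620062-87620311: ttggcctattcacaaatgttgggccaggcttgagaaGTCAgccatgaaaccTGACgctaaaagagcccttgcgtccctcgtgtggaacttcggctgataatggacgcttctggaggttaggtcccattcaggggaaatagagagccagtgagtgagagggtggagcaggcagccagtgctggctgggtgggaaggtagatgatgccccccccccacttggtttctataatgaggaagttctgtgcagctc
The window of Pik3ap1 holds 0 matches and that of Inpp5d 2. Bases after the start of the gene were not searched, so all these counts cover only the part before it. Among the other genes called in unstimulated cells, Cd81, higher in Tg cells, has 0 matches in its window. Of those lower in Tg cells, Tec has 1, Dapp1 5, Pik3cd 2, 1 and 1 in its 3 windows and Map4k1 1 and 3 in its 2 windows, while Pag1, Blk and Malt1 were not counted. Of the 42 windows that RefSeq's table gives for 30 of the signalling genes, 31 hold at least 1 match (73.8%), as do 80.2% of all 32851 windows. These letters are short, also occur within sites of other factors, and a match is not a binding site.

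Other genes of the pathway came from lists of co-receptors and inhibitory receptors, further kinases, phosphatases and adaptors, PI3 kinase and AKT, calcium and NFAT, RAS and MAP kinases, and the route to NF-kB. Of 96 such genes 79 were measured, with 226 probe sets. After stimulation 55 were lower and 8 higher in Tg cells and likewise 55 and 8 in WT cells, with medians of −0.59 and −0.70. Among all genes 23.3% were lower and 35.2% higher in Tg cells, and 24.0% and 35.9% in WT cells. The transcription factor genes Fos and Jun fell by 5.43 and 3.74 in Tg and by 6.06 and 3.19 in WT cells. Cr2, a complement receptor of B cells, fell by 3.80 in Tg and 4.01 in WT cells. Pirb, an inhibitory receptor, fell by 2.63 in Tg cells, and Cd72, another, fell by 2.68 in WT cells. The largest rises were smaller than 1 log2 unit: Sla2, an adaptor that dampens antigen receptor signals (0.60), Nck1 (0.58), Rcan1, an inhibitor of calcineurin (0.36) and Pdpk1 (0.34) in Tg cells, and Ppp3r1, the regulatory subunit of calcineurin (0.76), Sla2 (0.54), Map2k2 (0.51) and Pik3r2 (0.50) in WT cells. With the deposited values Sla2 turned to −0.017 in Tg and −0.047 in WT cells and Rcan1 to −0.24 in Tg cells, and Nck1 (0.18) and Pik3r2 (0.04) were no longer called. Ppp3r1 lost its call without WT unstimulated replicate 1, where it read 0.31 (adjusted p = 0.0717), or without WT stimulated replicate 2 or 3.

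Between the genotypes 7 of the 79 were higher and 8 lower in unstimulated Tg cells, against 5.45% higher and 4.90% lower among all genes. Ifitm1 read 7.49, 8.02 and 7.76 in Tg and 6.57, 6.03 and 6.14 in WT cells (1.51 ± 0.15). The other rises named were those of the inhibitory receptors Lair1 (1.04) and Pirb (0.78) and of the phosphatase gene Ptpn22 (0.81), beside which the granulocyte and myeloid markers given above were also higher, and their part in these differences was not tested. All 4 lay without overlap above the WT arrays. Lower were the RAS exchange factor Rasgrp1 (−0.75), the kinase Gsk3b (−0.74), Tab2 (−0.51), which couples TAK1 to ubiquitin chains, and Pdpk1 (−0.47), the kinase that phosphorylates AKT. Of these 8, Tab2 lost its call when single arrays were left out, namely any of the 3 Tg unstimulated ones or WT unstimulated replicate 1 or 2 (adjusted p up to 0.0844).

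In stimulated cells 4 of the 79 were higher and 1 was lower in Tg cells, against 1.24% higher and 1.10% lower among all genes. Fcgr2b, the inhibitory Fc receptor that recruits SHIP1, read 10.97, 11.02 and 10.82 in Tg against 10.03, 9.98 and 9.79 in WT cells. The groups lay far apart (1.00 ± 0.083, adjusted p = 1.88e-05), and 4 of its 5 probe sets were called higher. Fos (0.74), Ptpn22 (0.67) and Cr2 (0.53) were higher as well. Granulocyte, myeloid and plasma cell markers were also higher in part here, as given above, and their part in these differences was not tested. Fos lost its call without any 1 of 7 arrays, among them Tg stimulated replicates 1 and 2 and WT stimulated replicates 2 and 3 (adjusted p up to 0.153), and Ptpn22 without WT stimulated replicate 3 (adjusted p = 0.0557). Rasgrp2, an exchange factor for RAP1, read 7.20, 7.0 and 7.0 in Tg against 8.80, 8.67 and 8.56 in WT cells (−1.61 ± 0.10, adjusted p = 1.37e-06).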

How the data were processed

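The authors deposited log2 probe set values. RMA and affy are named, without versions, per the submitters' processing notes. The sources used here do not say whether all 12 arrays were normalized in 1 run. Of the probe sets 64 array controls were left out. Symbols came from GEO's platform annotation.

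R 4.3.3 and limma 3.58.1 fitted a mean for each group over 12 arrays, with no block and a constant prior (residual df 8, prior df 4.71), and applied Benjamini-Hochberg adjustment over 45037 probe sets. Genotype differences and the interaction used deposited values, and stimulation changes values quantile-normalized over all 12 arrays. The procedure was tested on simulated data. Alternatives were other scalings, a replicate block, leave-outs, a brightness filter, an intensity trend and the 6 arrays of a comparison alone. The number of arrays limits the precision, and p-values measure only the spread between them.

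Per contrast, up to 5 rises and 5 falls with the largest change among called members without overlap were named, with members whose probe sets disagreed, 7 core genes, and up to 4 rises and 4 falls of the other pathway genes. The members and lists were chosen with earlier results of these data known.

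Same-numbered replicates deviated together in every pair for WT stimulation (r = 0.318, 0.175 and 0.19) and for the stimulated genotypes (0.33, 0.101 and 0.178). For the unstimulated genotypes they read 0.0778, 0.0701 and 0.297, where Tg replicate 2 and WT replicate 1 read 0.112. For Tg stimulation they read 0.0689, −0.16 and 0.115. The labels call the replicates independent and name no pairing.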

Additional observations from a re-analysis of the deposited data

Results flagged for a closer look

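For 7 other genes of the pathway the difference between Tg and WT cells was not the same in the 2 states, by the interaction of genotype and stimulation (log2, difference in stimulated minus difference in unstimulated cells). No signalling gene of the main set was among them.

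Fcgr2b differed by 1.00 in stimulated and 0.13 in unstimulated cells, an interaction of 0.87 ± 0.12 (adjusted p = 0.00233) that 3 of its 5 probe sets showed and that held without any 1 of the 12 arrays. Rasgrp2 differed by −1.61 in stimulated and −0.033 in unstimulated cells (−1.58 ± 0.14, adjusted p = 0.000128), also without any 1 array, though 1 of its 4 probe sets was called. Ifitm1 differed by 0.24 in stimulated and 1.51 in unstimulated cells (−1.27 ± 0.21, adjusted p = 0.0101), and held without any 1 array. Lair1 differed by 0.22 in stimulated and 1.04 in unstimulated cells (−0.81 ± 0.15, adjusted p = 0.0167), and lost the call without WT stimulated replicate 2 or 3. Beside these, the interaction was called negative for 11 of 12 granulocyte markers (median −2.50), for 4 of 8 erythroid markers (median −1.19) and for 5 of 14 markers of monocytes, macrophages and dendritic cells, with 1 positive (median −0.65), and their part in these results was not tested.

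Gsk3b (0.78 ± 0.16, adjusted p = 0.0327), Pdpk1 (0.66 ± 0.14, adjusted p = 0.0316) and Rasgrp1 (0.63 ± 0.13, adjusted p = 0.0357) were called lower in Tg than in WT cells when unstimulated (−0.74, −0.47 and −0.75) and not after stimulation (0.047, 0.19 and −0.12). Gsk3b and Pdpk1 kept the call without 4 of the 12 arrays and Rasgrp1 without 3, and 1 probe set of each gene was called. With the replicate number as a block the calls of Gsk3b (adjusted p = 0.0524) and Rasgrp1 (adjusted p = 0.0562) were lost.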

How the results depend on the processing

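The counts of signalling probe sets called were 12 between the unstimulated genotypes, 4 between the stimulated genotypes, 66 for stimulation in Tg cells, 66 in WT cells and 0 for the interaction. Leaving out 1 array at a time gave 4 to 22, 1 to 4, 59 to 70, 60 to 73 and 0. With the replicate block they were 14, 5, 65, 66 and 0. Beside the calls named with it above, the block took away that of 1425515_at of Pik3r1 in Tg stimulation. Between the unstimulated genotypes the block added the calls of Vav3, Rac2 and a Pik3cd probe set (1443798_at, 0.45, opposite in sign to the brightest one). Whether the numbers pair those samples is not given by the labels. Without the 4 arrays numbered 3 there were 6 between the unstimulated and 1 between the stimulated genotypes. Using only the 6 arrays of the comparison left 1 between the unstimulated genotypes. Quantile normalization left 1 between the stimulated genotypes. A fold of at least 2 left 1, 0, 29 and 33, and 1 probe set per gene, which tests fewer probe sets, gave 34 in Tg and 32 in WT stimulation.

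Of 2757 alternatives for 146 named changes, 2534 kept direction and call, 177 lost the call, 6 gained it and 40 changed sign. With median-centred values the sign changed in Tg stimulation for Btk (0.28), Blnk (0.57), Plcg2 (0.11), Vav1 (0.077), Pag1 (0.03), Pik3ap1 (0.35), Pik3cd (0.06), Inpp5d (0.08), Vav2 (0.36), Rac2 (0.39) and Cbl (0.073), in WT stimulation for Btk (0.61), Blnk (0.62), Vav1 (0.24), Cbl (0.23), Cd81 (0.027), Map4k1 (0.56), Inpp5d (0.35) and Sos1 1431311_at (0.053), and between genotypes for Vav1 unstimulated (−0.03) and Cd79b stimulated (−0.0067). With deposited values it changed in WT stimulation for Cbl 1450457_at (−0.043), Sos1 1421884_at (−0.09), Sos1 1434389_at (−0.25) and Sla2 (−0.047), and in Tg stimulation for Sla2 (−0.017) and Rcan1 (−0.24). Without the arrays numbered 3 it changed for Cd79b unstimulated (0.005) and stimulated (−0.005), Btk in WT stimulation (0.015), and the interactions of Cd79a (−0.26) and Cd79b (−0.01). Leaving out single arrays turned changes near 0, with ranges between genotypes of −0.085 to 0.28 for Cd79a unstimulated, −0.13 to 0.018 for Cd79b unstimulated, −0.05 to 0.075 for Vav1 unstimulated and −0.028 to 0.047 for Cd79b stimulated, of −0.29 to 0.015 for Btk in WT stimulation and of −0.005 to 0.14 for the interaction of Cd79b. The causes of these sign changes were not tested, beyond the shift of the array medians between the states. With 3 arrays a group, the smallest genotype difference called for a signalling gene was −0.27 (Blk).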

Other observations

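Values of the 3 RASGRP genes measured here, exchange factors that answer to calcium or diacylglycerol, are given side by side. This grouping was made after the values were seen, and it carries no test beyond those of the single genes. Rasgrp1 read 9.26, 9.38 and 9.29 in Tg and 10.24, 10.03 and 9.92 in WT unstimulated cells, a difference of −0.75 ± 0.095 (adjusted p = 0.000333), and −0.12 ± 0.095 after stimulation (adjusted p = 0.764). Rasgrp2 differed by −1.61 ± 0.10 in stimulated cells at its brightest probe set and by −0.86 ± 0.13 (adjusted p = 0.00342) at a second, while its other 2 probe sets read −0.46 and −0.40 and were not called. Rasgrp3 read 0.48 ± 0.13 in stimulated cells at the probe set that stands for the gene, which was not called (adjusted p = 0.0883), and 0.62 ± 0.12 at its dimmer one, which was called (adjusted p = 0.016).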
